A study of Sus scrofa with 14 samples.

Results

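The cells described here are epithelial cells of pig milk that carried RNA of keratins of the basal layer, KRT14 or KRT15. They were chosen by measured values in the 2 milk libraries. A cell was taken when it had at least 300 detected genes and at most 25% mitochondrial UMIs (unique molecular identifiers, each 1 captured RNA molecule), UMIs in at least 3 of the 7 genes KRT14, KRT15, S100A2, TAGLN, MGP, SCGN and TPM1 with KRT14 or KRT15 among them, and no UMI of TOP2A or CD3D. The rule found 1890 of 32085 milk cells, with 1152 of 17571 in the library labelled L0 and 738 of 14514 in the library labelled L20.

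The study followed the mammary gland of multiparous sows at 5 stages, which were day 90 of gestation (G90), days 0 and 20 of lactation (L0 and L20) and days 2 and 7 after natural weaning (PI2 and PI7). Nuclei were sequenced from 10 glands, 2 per stage, and whole cells from 1 sample of colostrum (L0) and 1 sample of mature milk (L20). The labels name no breed, treatment or allele, and all sows were fed a standard diet. The 2 tissue sections of the series were not used here. With 1 milk sample per stage, no difference between the milk libraries has a replicate check. All intervals on milk values are 95% intervals that cover counting error only, exact Poisson for levels and exact binomial (Clopper-Pearson) for shares.

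The milk labels could not be taken as settled. Cells with a UMI of CD3D, a T cell receptor subunit, were 1.37% of kept cells in the library labelled L0 and 4.83% in the library labelled L20, and epithelial cells were 15.3% and 7.27%. The order of the libraries in these shares and in the number of cells kept ran opposite to the order by stage that the study shows for its milk cells. The measures differ, since the study's cell types are annotated clusters. Here the CD3D share counts cells by 1 gene and the epithelial share counts cells by marker rules. Myeloid cells, a wider class than the macrophages that the study compares, were 57.6% and 53.0% of kept cells, higher in the library labelled L0 as the study has its macrophages. If the labels were exchanged, every direction given below between the libraries would turn, so they are called the library labelled L0 and the library labelled L20. Of all deposited barcodes, before the filters, 284 occurred in both libraries, and 1 of them marked a cell chosen in both.

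The mammary epithelium has an inner luminal layer, which makes milk under factors such as ELF5, and an outer layer of myoepithelial cells on the basement membrane. Myoepithelial cells carry the keratins KRT5 and KRT14 and the factor TP63, and they hold a smooth muscle apparatus (ACTA2, MYH11, CNN1) that contracts when oxytocin binds its receptor OXTR and so ejects milk. Milk itself holds shed luminal cells and leukocytes, and cells with basal keratins have been described among its epithelial cells.

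The chosen cells had much RNA in the library labelled L0 and little in the library labelled L20. The median was 19404 UMIs and 3051.5 genes per cell in L0, and 2506 UMIs and 798 genes in L20. They made up 6.56% of kept cells in L0 (6.19 to 6.93) and 5.08% in L20 (4.73 to 5.45). That order turned when each cell was thinned to 1000 UMIs before the rule was applied, to 0.969% in L0 and 3.86% in L20. Among epithelial cells the chosen share was 54.4% in L0 and 85.2% in L20 under 2000 UMIs, and 49.2% and 45.7% from 20000 UMIs.

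The genes of the rule are described first, with no test, since they chose the cells. Levels are CPM, the UMIs of a gene scaled to 1000000 UMIs summed over the cells. KRT14, a type I keratin of basal cells, stood at 180 CPM in L0 (175 to 186) and 398 CPM in L20 (380 to 416). It was detected in 1142 of 1152 cells of L0 and 672 of 738 cells of L20. After thinning to 1000 UMIs the shares of cells with KRT14 were 21.0% and 56.3%. In myeloid cells of the same libraries, which should lack it, 1.20% and 0.442% of cells had a KRT14 UMI at median depths of 1265 and 1372 UMIs, and after thinning 0.560% and 0.254% had one.

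KRT15, a keratin of basal and progenitor cells, had 59 UMIs in 28 cells of L0 (2.42 CPM, 1.84 to 3.12) and 679 UMIs in 248 cells of L20 (139 CPM, 129 to 150). The shares of cells with a KRT15 UMI were 2.43% and 33.6%. After thinning of the cells already chosen they were 0.523% and 23.1%, which depth also affects, against 0.0400% and 0.0508% of thinned myeloid cells. Thus 1124 cells of L0 had KRT14 alone, 18 had both keratins and 10 had KRT15 alone, and in L20 490 cells had KRT14 alone (66.4%), 182 had both and 66 had KRT15 alone. Among all epithelial cells, chosen and luminal, with fewer than 2000 UMIs, KRT15 was detected in 3.80% in L0 and 36.9% in L20. Between 2000 and 5000 UMIs the shares were 0.581% and 25.6%.

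The other rule genes were also higher in the library labelled L20 at the level of summed UMIs. MGP, an inhibitor of calcification, was at 68.7 CPM in 19.4% of L0 cells and 3249 CPM in 75.6% of L20 cells. TPM1, an actin-binding tropomyosin, was at 244 and 1691 CPM. TAGLN, an actin-binding protein of smooth muscle, was at 23.2 and 85.5 CPM. S100A2, a calcium-binding protein of basal cells, was at 572 and 1047 CPM. SCGN, the calcium-binding protein secretagogin, was at 390 and 1033 CPM. Other genes of neuroendocrine cells were near 0. CHGA had 2 UMIs, CHGB 8 and SYP 0 in L0, and all 3 were at 0 in L20. Taking 3 cells of the total as the limit, a count of 0 allows up to 0.260% of cells with a UMI in L0 and 0.407% in L20, which bounds detection at these depths and not expression.

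**Figure D1:**
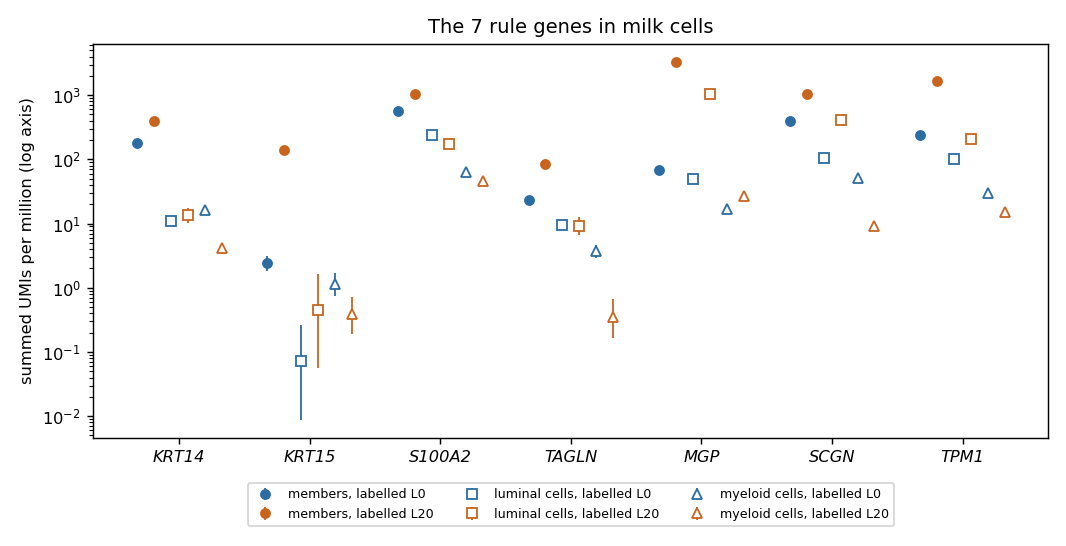
Level of the 7 genes of the rule in the chosen, luminal and myeloid cells of each milk library, in CPM on a log axis, with exact Poisson 95% intervals. KRT15 and MGP stand furthest apart between the libraries, at 2.42 against 139 CPM and 68.7 against 3249 CPM in the chosen cells.

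The threshold of the rule cut through a continuous range of cells. The number of rule genes per cell was 3 in 394, 4 in 485, 5 in 240 and 6 in 33 cells of L0, and no cell had all 7. In L20 the same numbers were 130, 231, 241 and 100, and 36 cells had all 7. Just outside the rule, 162 cells of L0 and 51 of L20 had KRT14 or KRT15 with only 2 rule genes. ELF5 was detected in 90.1% and 60.8% of those cells, and in 95.7% and 66.2% of the cells just inside with 3 rule genes. A further 80 cells of L0 and 6 of L20 met the gene count but held a UMI of TOP2A or CD3D, and 479 and 273 cells had 3 or more rule genes without either keratin. On RefSeq Sscrofa11.1 the KRT15 gene lies at chr12:21124605-21130247, MGP at chr5:57665272-57669360, SCGN at chr7:20389156-20432985 and TAGLN at chr9:44561756-44567385, and the UMIs were counted per whole gene.

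Checked against the defining genes of myoepithelium, the chosen cells of milk did not carry its contractile set. ACTA2, smooth muscle actin, had 4 UMIs in 4 cells of L0 (0.164 CPM) and 27 UMIs in L20 (5.53 CPM), all 27 of them in 1 cell. MYH11, smooth muscle myosin, had 19 UMIs in L0 (0.779 CPM) and 17 in L20 (3.48 CPM). CNN1, calponin, had 19 UMIs in L0 and 5 in L20, the latter all in 1 cell.

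Of the other myoepithelial genes, OXTR and TP63 were sparse, and KRT5 and MYLK were detected in more cells. OXTR had 9 and 2 UMIs, and TP63 had 49 and 4. KRT5, the type II partner of KRT14, was detected in 13.7% of L0 cells at 16.7 CPM and 5.01% of L20 cells at 23.0 CPM. MYLK, the kinase that switches on smooth muscle myosin, was at 2.99 and 11.07 CPM. The contractile RNA of these cells was thus mostly TPM1 and TAGLN, 2 genes of the rule, within a summed level of 388 CPM in L0 and 1985 CPM in L20 over 12 contractile genes.

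Genes of the secretory luminal cell were abundant instead. ELF5 was at 598 CPM in 96.5% of L0 cells and 497 CPM in 67.1% of L20 cells, whereas myeloid cells had 118 and 4.04 CPM. EPCAM, an epithelial adhesion protein, was at 348 and 340 CPM, and KRT8, a luminal keratin, at 394 and 545 CPM. CSN2, beta-casein, was at 122376 CPM in L0 and 114614 CPM in L20. PAEP, beta-lactoglobulin, was at 129933 and 113207 CPM. Myeloid cells, which do not make milk, had CSN2 at 20955 CPM in L0 and 1653 CPM in L20, so the pooled level stood above that background in both libraries. The pooled level of L20 came from its deep cells, since the median chosen cell held 5 CSN2 UMIs there and 132 of 738 held 0, against a median of 2175 in L0. The data therefore go against a name that implies myoepithelium, and the cells are called KRT14/KRT15-positive epithelial cells in what follows.

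When all kept cells were clustered without regard to the rule, these cells did not form a cluster of their own. Of the 1152 cells of L0, 736 fell in a cluster with 734 luminal cells and 411 in a second cluster with 751 luminal cells. In L20, 726 of 738 fell in 1 cluster, which also held 313 of the 317 luminal cells. Luminal cells here are the other epithelial cells, with UMIs in at least 3 of EPCAM, KRT8, KRT18, ELF5, XDH and CLDN4 including EPCAM or KRT18, and they number 1529 in L0 and 317 in L20. Some carry KRT14 with too few other rule genes, at 10.8% and 10.1% of luminal cells.

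The KRT14/KRT15-positive cells differed widely in mitochondrial RNA, and they are divided here at 0.5% of UMIs, a cut set after the values were seen. It falls in a continuous range, as 70 cells of L0 and 173 of L20 lie between 0.25% and 1%. Their median mitochondrial share was 2.29% of UMIs in L0 and 0.131% in L20. At most 0.5% mitochondrial UMIs were found in 168 of 1152 cells of L0 (14.6%, 12.6 to 16.8) and in 554 of 738 cells of L20 (75.1%). Among luminal cells these were 68 of 1529 in L0 (4.45%) and 135 of 317 in L20 (42.6%), lower shares than in the chosen cells, without a test. Luminal cells needed at least 3 luminal markers, which the rule did not ask of the chosen cells. At least 3 were detected in 76.2% (L0) and 49.5% (L20) of low-mitochondrial chosen cells, against 99.8% and 71.2% of the other chosen cells. The definitions thus enter this difference, and their part was not tested. The low-mitochondrial cells were also shallow. They had a median of 3125 UMIs in L0 and 2150.5 in L20, against 21443 and 8073.5 in the other chosen cells.

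**Figure D2:**
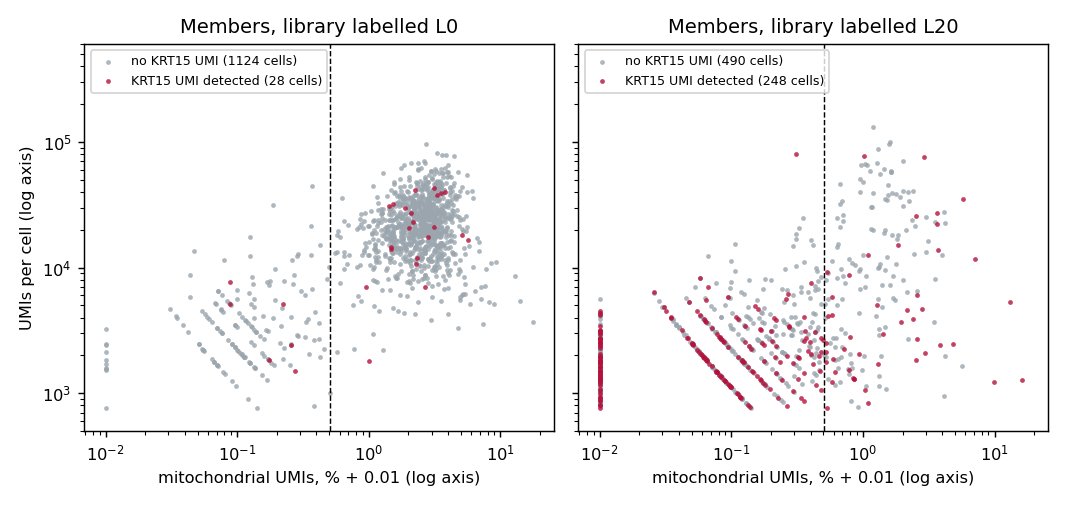
Each KRT14/KRT15-positive cell by its mitochondrial share of UMIs (percent, log axis) and its UMIs (log axis) in the 2 milk libraries, with the 0.5% line dashed. The library labelled L20 has 75.1% of its cells at or under the line and the library labelled L0 has 14.6%.

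Several genes differed between low-mitochondrial cells and the rest in the same direction in both libraries. KRT14 and SCGN are genes of the rule, of which a required UMI weighs more in a shallow cell, so nothing is read from their levels. In low-mitochondrial cells KRT14 was at 731 CPM in L0 and 750.5 CPM in L20, against 163 and 212 CPM in cells over 0.5%. SCGN was at 3561 and 1539 CPM against 288 and 766. ADIRF, a small nuclear protein named for adipogenesis, was at 3139 and 11689 CPM against 80.2 and 2026. CSN2 was lower, at 36164 and 50032 CPM against 125150 and 148576.

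The same contrast was present in luminal cells. Low-mitochondrial luminal cells of L0 had SCGN at 1226 CPM against 89.9 in the others, ADIRF at 473 against 28.9 and TPM1 at 418 against 98.6. In L20 SCGN was at 1254 against 296 CPM and ADIRF at 4137 against 571. Depth differed in the same way, with medians of 4196 and 17031 UMIs in L0 and 2661 and 12899.5 in L20, and its part was not tested.

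Clustering the KRT14/KRT15-positive cells alone gave 5 groups in L0 and 4 in L20, which are described without a test because the same genes formed them. Levels of the rule genes in these groups are values only, since a required UMI weighs more in a shallow group. In L0, groups 1 and 2, with 592 and 239 cells, were the deep secretory cells. They had medians of 24272.5 and 17567 UMIs, and CSN2 was at 127364 and 155053 CPM. KRT14 was lowest there, at 119 and 121 CPM, and KRT15 was at 1.06 and 0.434 CPM.

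Group 3 of L0, with 162 cells, was the low-mitochondrial group, with a median share of 0.111%. It had the highest KRT14 of the library at 707 CPM, SCGN at 3664, ADIRF at 2994 and TAGLN at 75.1 CPM. Among the 15 genes with the largest ratio to the other members were PCLAF, TPX2 and CDK1, in cells from which those with TOP2A had been removed. PCLAF, a replication clamp partner, was at 102 CPM against 3.05 in the other members, TPX2, a spindle factor, at 37.6 against 1.78, and CDK1, the mitotic kinase, at 32.4 against 1.65.

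Group 4 of L0, with 114 cells, had a set of genes that were nearly absent from the other members of the library. FDCSP, a secreted peptide, was at 2426 CPM against 13.97 in the other members. CLDN1, a tight junction claudin, was at 125 against 0.455 CPM, GABRP, an ion channel subunit, at 112 against 1.27, and NMB, a neuropeptide, at 312 against 3.59. KRT7 was at 1240 CPM and S100A2 at 2332. Its cells were as deep as those of group 2, at 17607 UMIs, and none was low in mitochondrial RNA.

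The main group of L20, group 1 with 399 cells, was the least secretory. Its median was 1826 UMIs with 0.0678% mitochondrial, and CSN2 was at 3668 CPM, against 168705 CPM in group 4 of the same library. KRT15 was at 634 CPM, TAGLN at 372, TPM1 at 6417, MGP at 9996, ADIRF at 20404 and KRT8 at 1457 CPM, each the highest of the 4 groups. ELF5 was at 765 CPM, with a UMI in 254 of the 399 cells (63.7%). MMP7, a protease of ductal epithelium, was at 74.6 CPM against 3.004 in the other members, and CALD1, caldesmon, at 91.6 against 7.51. Cytosolic ribosomal proteins took 19.7% of its UMIs, against 2.81% in group 4.

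Group 2 of L20, with 137 cells, again had FDCSP, at 4363 CPM against 538 in the other members, with KRT5 at 68.4 against 15.1 CPM. Group 4, with 90 cells, resembled the deep cells of L0. Its median was 22873 UMIs, and ACSL6 was at 627 CPM and SCD, a fatty acid desaturase, at 1239 against 49.0 CPM in the other members. KRT15 was at 4.55 CPM in it.

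In each library 1 group had leukocyte genes among its leading genes. Group 5 of L0, with 45 cells, had FCER1G at 241 CPM, PTPRC, the leukocyte antigen CD45, at 272 and the chemokine CCL2 at 138. Group 3 of L20, with 112 cells, had S100A4 at 925 CPM against 7.85, FCER1G at 939 and the complement genes C1QB and C1QC at 61.8 and 69.0 CPM. At least 2 of 7 myeloid markers were detected in 91.1% and 76.8% of the cells of these groups. That did not set them apart from the deep groups, at 91.2% and 82.0% in groups 1 and 2 of L0 and 84.4% in group 4 of L20. Shallow groups were lower, at 25.9% in group 3 of L0 and 9.27% and 32.1% in groups 1 and 2 of L20. Median depths in L20 were 1826, 3779 and 2510 UMIs in groups 1, 2 and 3. Over all chosen cells at least 2 markers were detected in 78.2% of L0 and 32.9% of L20, and in luminal cells in 77.0% and 48.6%. The summed level of the 7 markers was 356 and 587 CPM in the chosen cells, 419 and 292 in luminal cells, and 13401 and 10518 in myeloid cells. The part of cells joined in 1 droplet or of free leukocyte RNA in these groups was not tested, since the doublet caller marked 0 cells in either library. Among the cells with the highest 5% of doublet scores were 2.00% of the chosen cells of L0 and 6.50% of those of L20, and 2.88% and 2.52% of luminal cells.

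**Figure D3:**
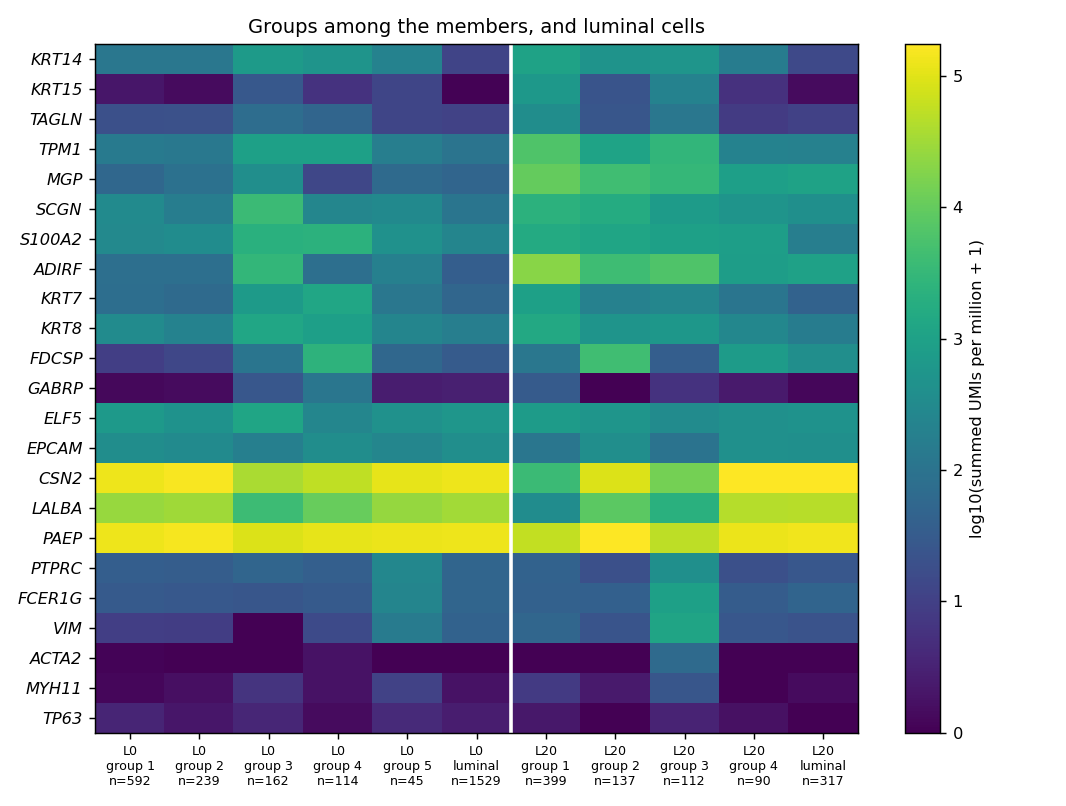
Level of selected genes (log10 of CPM + 1, colour) in the groups of KRT14/KRT15-positive cells of each milk library, with luminal cells beside them. KRT15, TAGLN and MGP are highest in group 1 of L20, FDCSP in group 4 of L0 and group 2 of L20, and FCER1G in group 5 of L0 and group 3 of L20.

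Set beside luminal cells of the same library, the chosen cells differed in many genes in one library or the other and in few in both. This contrast is largely the rule's own, so it is a description. In L0, 266 genes of 12351 were 2-fold or more higher and 203 lower, and in L20 the numbers were 2218 and 28 of 8227. Of 8200 genes with at least 30 UMIs in each library, 60 were 2-fold or more higher in the chosen cells in both libraries (0.732%), and 0 were 2-fold or more lower in both (0.00%). The median log2 ratio over all genes was 0.12 in L0 and 0.66 in L20. With TMM scaling those medians were 0.00 and 0.03 and 35 genes were 2-fold higher. The counts higher and lower in both were 530 and 21 without cells with 2 or more myeloid markers, and 1755 and 185 in low-mitochondrial cells, so both depend on which cells are kept.

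After KRT15 and KRT14 the leading genes were not of the rule. GABRP was 6.45-fold higher in L0 and 9.87-fold in L20, although luminal cells of L20 had 1 UMI of it. In L0 this came from group 4, since the other members were at 1.27 CPM and luminal cells at 1.89. CRYAB, a small heat shock protein, was 5.45-fold and 7.26-fold higher, at 82.1 and 151 CPM. ADIRF was 4.998-fold and 5.43-fold higher, at 176 and 5356 CPM. KRT7, a simple-epithelium keratin, was 4.004-fold and 6.66-fold higher, at 211 and 284 CPM.

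The rest of the first 10 were STAC2 (3.999-fold and 6.82-fold), SPAG11, a defensin-like gene (3.68-fold and 9.57-fold), EPB41L4A (3.49-fold and 6.28-fold) and NMB (3.45-fold and 11.8-fold). NMB and SPAG11 in L0 also came from group 4. The other members were at 3.59 CPM of NMB and 0.409 of SPAG11, and luminal cells at 9.87 and 1.85. On the other side, no gene was at or under 0.5 in both libraries. Ordered by the larger of the 2 ratios, the lowest were SLC8A3 at 0.565 and 0.566, WNT2B at 0.628 and 0.578, AHSP, ACSL6 at 0.638 and 0.632, and ACACA, the first enzyme of fatty acid synthesis, at 0.662 and 0.565. CCSER1, KCTD2, SOAT1 and ADGRL4 were also among the lowest.

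By gene list, the counts below are to be read beside 0.732% of all genes higher in both libraries, in a contrast that the rule itself set. Among the hemidesmosome and basement membrane genes, COL17A1, a collagen of the hemidesmosome, was 2-fold or more higher in both libraries, at 6.35 CPM in L0 and 12.7 in L20. Of 5 contractile genes tested, MYLK was so along with TAGLN and TPM1 of the rule. Of 11 luminal identity genes, KRT7 and KRT8 were higher and 0 lower. Among the squamous genes, PERP, a desmosome protein, was higher, at 73.7 and 73.4 CPM. SLPI and FDCSP were higher among 9 antimicrobial genes. FDCSP in L0 came from group 4, as the other members were at 13.97 CPM and luminal cells at 31.7.

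Pooled over cells, the secretory lists gave 0 genes past 2-fold in either direction, in 6 milk protein and 14 milk fat genes. Their median log2 ratios were -0.04 and -0.14 in L0 and -0.47 and -0.44 in L20, beside medians of 0.12 and 0.66 over all genes. The groups of L20 differed widely. Milk proteins took 7.21% of UMIs in group 1, 35.2% in group 2, 8.32% in group 3 and 43.3% in group 4, against 45.2% in luminal cells. Of the genes tested, none was past 2-fold in the same direction in both libraries among 5 progenitor, 10 cytokine, 9 interferon and MHC, 13 stress, 16 growth factor, 10 cell death and 7 myeloid genes. The hormone sensing and lymphocyte lists had only 2 genes tested each, and the stroma, endothelial and dividing lists 1 each, and none of these was past 2-fold the same way in both. VIM, the stroma gene tested, was at 0.275 of the luminal level in L0 and 6.05-fold higher in L20.

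Among the genes with the largest ratios to myeloid cells, FDCSP was 31.8-fold higher in L0 and 43.9-fold in L20, GABRP was 28.2-fold and CCN2, a matricellular protein, 11.9-fold higher in L0. In L20 myeloid cells had only 2 UMIs of GABRP and 3 of CCN2. In L0 the members outside group 4 had FDCSP at 13.97 CPM and GABRP at 1.27, and myeloid cells 7.92 and 0.432. MMP7, CNN3, APOBEC1, KRT7, KRT80, HOXC9 and the epithelial factor ELF3 were the others of the first 10. In the other direction, FN1, fibronectin, was at 0.0173 and 0.0139 of the myeloid level, and TIMP1 at 0.0204 and 0.0239. The scavenger receptor CD163, PLBD1, CYP1B1, C5AR2, MS4A7, ARG1, ACOD1 and PLA2G2D were the others.

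Between the libraries, 11258 genes had at least 30 UMIs in the chosen cells. At 2-fold or more, 766 were higher in the library labelled L20 (6.80%) and 2249 higher in the library labelled L0 (20.0%). The median log2 ratio of L20 to L0 over all genes was -0.30. With TMM scaling it was -0.12 and the counts were 1015 and 1632, and with DESeq2 size factors it was -0.08 with 1051 and 1574. With every cell thinned to 1000 UMIs the median was 0.08, with 740 genes higher in L20 and 775 in L0. In cells with at most 0.5% mitochondrial UMIs, with median depths of 3125 and 2150.5 UMIs, 369 genes were higher in L20 and 1156 in L0. Because the share of low-mitochondrial cells also differed, ratios within those cells are given beside the main ones.

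The first 10 genes higher in L20 included KRT15 and MGP of the rule. KRT15 was 57.5-fold higher (44.1 to 76.4), 11.8-fold in cells with at most 0.5% mitochondrial UMIs and 25.3-fold in the rest. MGP was 47.3-fold higher (44.95 to 49.7), 14.7-fold in low-mitochondrial cells, and 21.5-fold in luminal cells. Both genes chose the cells, and these ratios are descriptions.

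Other genes of the first 10 were also higher in luminal cells of the library labelled L20. ATP6V1G3, a proton pump subunit, had 10 UMIs in L0 and 287 in L20 (143-fold, 76.9 to 302), and the ratio was 90.3 in luminal cells and at least 24.0 in low-mitochondrial chosen cells, with 0 and 159 UMIs, against a floor of 3 UMIs. FABP4, a fatty acid carrier, had 52 and 635 UMIs (61.0-fold), with 15.04 in luminal cells and 18.5 in low-mitochondrial cells, from 3 and 123 UMIs. It was also a leading gene of a cluster of kept cells with 1195 myeloid cells in L0 and of one with 1219 in L20. The part of leukocyte RNA in its ratio was not tested. PTHLH, parathyroid hormone-related protein, had 38 and 300 UMIs (39.5-fold), with 45.8 in luminal cells and at least 2.11 in low-mitochondrial cells, from 0 and 14 UMIs. PTHLH came with the deep cells, at 102 CPM in group 4 of L20 and 3.96 in the other members. DEFB1_2, a beta-defensin gene, had 5 and 71 UMIs and was 71.0-fold higher, and at least 8.59-fold in low-mitochondrial cells, from 0 and 57 UMIs.

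Genes of leukocytes were also among the first 10. S100A4 was 58.9-fold higher (36 and 424 UMIs) but 1.58-fold in low-mitochondrial cells and 1.42-fold in luminal cells. CCL8 had 8 and 103 UMIs and MS4A7 5 and 50. MMP13, with 8 and 74 UMIs, came with the deep cells instead, as all 74 of L20 were in group 4. In luminal cells the ratio was 11.6 for CCL8, 7.24 for MS4A7 and 1.89 for MMP13. Low-mitochondrial cells of L20 had 14 UMIs of S100A4, 6 of CCL8, 8 of MS4A7 and 0 of MMP13. Of the 7 myeloid markers tested, FCER1G, AIF1 and TYROBP were 2-fold or more higher in L20, and their part in these ratios was not tested.

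Higher in the library labelled L0 were mostly genes of low level. TAC4, a tachykinin, was at 98.5 CPM in L0 and 1.43 in L20. AGR2, a chaperone of mucin-making cells, had 984 UMIs in L0 and 0 in L20, a ratio of at most 0.0152 against a floor of 3 UMIs over the group. SCRG1 was at 136 and 4.10 CPM, and CRHR1, a receptor of corticotropin-releasing hormone, at 19.8 and 1.23. CLDN1 had 311 and 2 UMIs, of which 301 in L0 were in group 4. HSPA1L, HS3ST1, SNX22, DUSP26 and SMOC2 were the others of the first 10. These genes were low in luminal cells of L20 as well. Their ratios of L20 to L0 were 0.0146 for TAC4, 0.0301 for SCRG1 and 0.0622 for CRHR1 in the chosen cells, and 0.0406, 0.0143 and 0.0750 in luminal cells.

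The ratios of the other rule genes are given in both subsets as values only, since these genes chose the cells. TPM1 was 6.93-fold higher in L20, and 3.98-fold in low-mitochondrial cells. KRT14 was 2.21-fold higher in all cells but 1.03-fold in low-mitochondrial cells. TAGLN was 3.68-fold higher in all, 2.55-fold in low-mitochondrial cells and 0.982-fold in the rest.

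SCGN was 2.65-fold higher in L20 in all cells and at 0.432 in low-mitochondrial cells, where it was at 3561 CPM in L0 and 1539 in L20. S100A2 was 1.83-fold higher in all and lower in low-mitochondrial cells, at 2091 and 1425 CPM. ADIRF, not a gene of the rule, was 30.5-fold higher in all and 3.72-fold in low-mitochondrial cells.

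**Figure D4:**
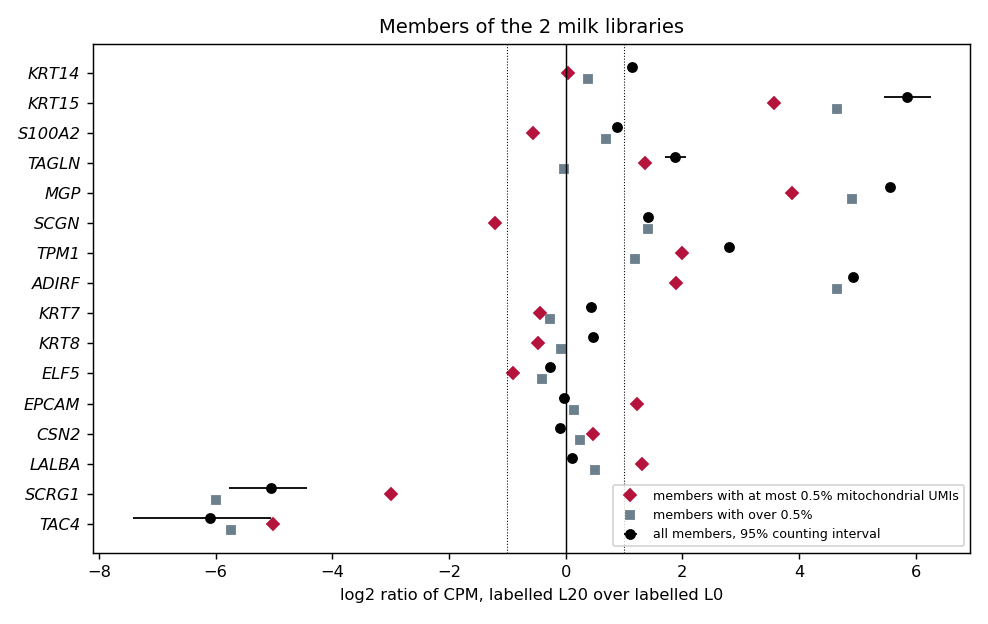
Ratio of the library labelled L20 to the library labelled L0 (log axis) for named genes in all KRT14/KRT15-positive cells, with exact 95% intervals, and in those with at most 0.5% and over 0.5% mitochondrial UMIs. KRT15 and MGP lie above 10 in all 3, while SCGN is at 2.65 in all cells and 0.432 in the low-mitochondrial cells.

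The contractile list had 6 of 8 genes tested past 2-fold higher in L20 and 0 lower, beside 6.80% and 20.0% of all genes, with a median log2 ratio of 2.02 beside -0.30 over all genes. Nothing is read from that count or median, since TAGLN and TPM1 chose the cells and ACTA2 reached the minimum of 30 UMIs through 1 cell. CALD1 had 83 and 111 UMIs and was 6.69-fold higher, and 3.04-fold in low-mitochondrial cells. MYLK had 73 and 54 UMIs and was 3.70-fold higher, and 1.76-fold in low-mitochondrial cells. The ratios of MYH11 (4.47, from 19 and 17 UMIs) and ACTA2 (33.7, from 4 and 27) rest on few molecules, those of ACTA2 in L20 on 1 cell.

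Other basal genes went the opposite way. Of 7 basal keratin and factor genes, KRT14 and KRT15 were higher in L20 and TP63, EGFR and ID4 were 2-fold or more higher in L0. EGFR, the epidermal growth factor receptor, was at 31.7 and 12.3 CPM, and ID4, an inhibitor of bHLH factors, had 200 UMIs in L0 and 1 in L20. Among the hemidesmosome and basement membrane genes, ITGA6, LAMB3, COL4A1, COL4A2 and LAMA5 were 2-fold or more higher in L0. In low-mitochondrial cells the ratio was 0.870 for LAMB3 and 0.402 for EGFR, against 0.337 and 0.388 in all cells.

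Pooled over cells, secretory genes differed by less than 2-fold. None of 6 milk protein and 14 milk fat genes was past 2-fold, and the ratios were 0.937 for CSN2 and 0.871 for PAEP. For CSN2 this pooled ratio is set by the deep cells of L20, as group 1 of L20, with 399 of 738 cells, was at 3668 CPM. The CSN2 ratio was 1.38 in low-mitochondrial cells and 1.19 in the rest. Of 12 luminal identity genes, CLDN3, CLDN7 and GATA3 were 2-fold or more lower in L20 and 0 higher, a share near the 20.0% of all genes that were lower. GATA3, a luminal transcription factor, was at 93.5 and 31.8 CPM, and its ratio was 0.432 in low-mitochondrial cells. Of 5 progenitor genes, KIT, the stem cell factor receptor, was at 68.1 and 14.3 CPM, and ALDH1A1 at 26.4 and 58.0 CPM. ERBB4 and AREG of 5 hormone sensing genes were lower in L20, each with 3 UMIs there.

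Cytokine and early response genes lay in both directions. Of 12 cytokine genes, CCL2, CXCL14, IL1A, IL18, IL34 and CSF1 were 2-fold or more higher in L20, beside 6.80% of all genes, and CXCL2, CXCL10, IL33 and CSF3 were higher in L0, beside 20.0% of all genes. IL18 was at 58.1 and 207 CPM, and its ratio was 3.56 in all and 5.04 in low-mitochondrial cells. CXCL14 was 22.0-fold higher in all but at 0.129 in low-mitochondrial cells, and in L20 it was at 497 CPM in group 3, the group with leukocyte RNA, and 5.38 in the others. CXCL2, a neutrophil chemokine, was at 3329 CPM in L0 and 1244 in L20.

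Of 14 stress and early response genes, IER3 was higher in L20 and FOS, JUN, JUNB, IER2 and DDIT4 were higher in L0, beside 6.80% and 20.0% of all genes. The ratios of FOS and JUN were 0.485 and 0.447 in all and 1.57 and 1.61 in low-mitochondrial cells, so their direction turned with the mitochondrial share. DDIT4, an inhibitor of mTOR, was at 0.257 in all and 0.331 in low-mitochondrial cells.

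The remaining lists gave smaller counts, to be read beside the same shares of all genes. Of 9 antimicrobial genes, CP, FDCSP and LPO were higher in L20 and WFDC2 was lower. FDCSP was at 252 CPM in 150 cells of L0 and 1099 CPM in 93 cells of L20, so it came from few cells in both. Of 9 interferon and MHC genes, MX1 and B2M were higher in L20, at 0.820 and 21.3 CPM and at 266 and 837 CPM. The B2M ratio was 1.17 in low-mitochondrial cells, and myeloid cells had B2M at 3441 and 4213 CPM.

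Of 21 growth factor genes, IGFBP5, PTHLH and SFRP1 were higher in L20, and EGFR, AREG and NOTCH1 in L0. IGFBP5, an IGF-binding protein, was at 13.2 and 46.3 CPM. Of 11 cell death genes, FAS and TNFAIP3 were higher in L20 and BBC3 in L0. Of 6 dividing genes, TPX2, CCNB1, CDK1 and MCM5 were higher in L0 and 0 in L20, where TPX2 and CCNB1 had 0 UMIs. VIM of 4 stroma genes and GZMH of 2 lymphocyte genes were higher in L20, and FN1 and THY1 of the stroma list, VWF and CLDN5 of 3 endothelial genes and DSC2 of 9 squamous genes were higher in L0.

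The same rule was applied to nuclei of the 10 glands, where replicate animals allow tests. The 10 glands had 18962138 to 53165191 UMIs in all. In the glands of G90, 10.98% and 3.15% of nuclei met the rule, followed by 9.33% and 8.81% in those of L0 and 28.0% and 3.05% in those of L20. After weaning the shares were 21.6% and 11.7% in the glands of PI2 and 16.3% and 24.6% in those of PI7. The 2 glands of L20 were the highest and the lowest of all 10. The share was 12.3% ± 10.8 (SD, n = 4) in lactating glands and 14.7% ± 7.80 (SD, n = 6) at the other stages, a difference of -2.44 percentage points. The exact permutation test, two-sided with 210 arrangements of the glands, gave p = 0.681, where the smallest possible p was 0.00476. The difference was 0.642 without replicate 2 of L20 and 0.226 with nuclei thinned to 500 UMIs, so no direction could be given.

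In contrast to the milk cells, the gland nuclei under the rule carried the contractile genes. ACTA2 ranged from 10.4 to 351 CPM over the 10 glands, with a median of 123 CPM. MYH11 ranged from 26.1 to 656 CPM with a median of 181, and OXTR from 4.71 to 46.4 with a median of 26.2. TP63 ranged from 18.8 to 147 with a median of 47.4 CPM.

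For each of the 4 genes ACTA2, MYH11, OXTR and TP63 the level was above that of luminal nuclei of the same gland in 10 of 10 glands. That comparison with luminal nuclei is a description, since the rule itself holds the contractile genes TAGLN and TPM1. The milk cells lay below the lowest gland for all 4, at 0.164 and 5.53 CPM for ACTA2, 0.779 and 3.48 for MYH11, 0.369 and 0.410 for OXTR and 2.01 and 0.820 for TP63. Nuclei and whole cells were prepared with different kits, and the effect of that on these levels cannot be told apart from the source. KRT14, which chose both, was at 252 to 1159 CPM in the nuclei and 180 and 398 CPM in the milk cells. Only the library labelled L20 lay within the range of the glands.

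**Figure D5:**
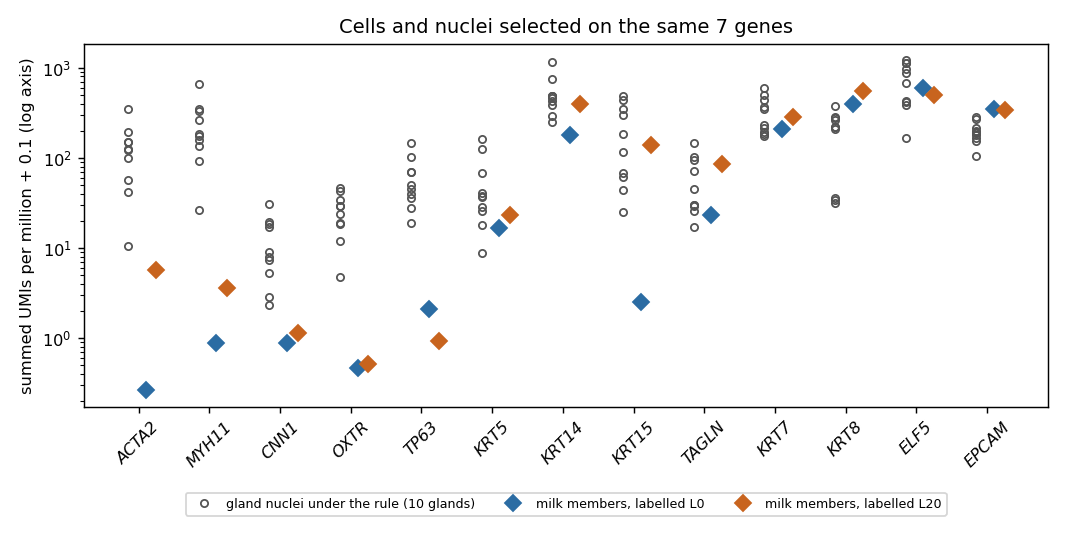
Level (CPM, log axis) of basal, contractile and luminal genes in gland nuclei under the rule, 1 point per gland, and in the KRT14/KRT15-positive cells of the 2 milk libraries. For ACTA2, MYH11, OXTR and TP63 both milk libraries lie below the lowest of the 10 glands.

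The difference between gland nuclei under the rule and luminal nuclei was tested with the quasi-likelihood test of edgeR on UMIs summed per gland, with the gland as a block. Genes of the rule and of the luminal definition were left out of the calls, because nuclei were selected on them. Of 12782 genes, 188 were higher at Benjamini-Hochberg adjusted p under 0.05 and at least 2-fold (1.47%), and 0 were lower (0.00%). Before adjustment 3214 genes had a p under 0.05, and 1519 of them were lower but none of those 2-fold or more, and DESeq2 also called 0 lower. Without the block, 26 genes were called higher.

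Genes of contraction were among the leading ones, with secreted and matrix genes beside them. The log2 difference was 3.81 for PI15, 3.41 ± 0.27 (SE) for OXTR, 3.26 for STC2, a secreted regulator of calcium and phosphate, 3.08 for MYH11 and 3.07 for ACTA2, which had an edgeR adjusted p of 5.84e-08. SYNPO2, MSRB3, FHOD3, a formin of the sarcomere, ADAMTS3 and POSTN completed the first 10. Of 9 contractile genes tested, 7 were called higher, with a median log2 difference of 1.83 beside -0.02 over all genes. Nothing is read from that count or median, since TAGLN and TPM1 of the same list chose the nuclei. The same limit holds for the single contractile genes above.

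Of 6 basal keratin and factor genes, KRT5 (log2 difference 1.88), ID4 (1.72) and TP63 (1.61) were called, and of 15 hemidesmosome and basement membrane genes DST, LAMA3 and COL17A1 were. None of 6 milk protein and 13 milk fat genes was called, with medians of -0.50 and -0.19. Stromal markers moved with this contrast, since 9 of 11 were called higher with a median of 1.104. Among them were DCN at 1.01, COL1A2 at 1.13 and RGS5, a marker of the mural cells of vessels. MYH11 and ACTA2 are markers of mural cells as well as of myoepithelium. The part of stromal and mural nuclei in the contrast was not tested.

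Genes higher in the milk cells than in luminal cells were looked up in the gland. The same rule chose the milk cells and the nuclei, so the lookup is a description. Of the 60 genes 2-fold higher in milk in both libraries, 51 were tested in the gland and 5 were called higher (9.80%, beside 1.47% of all genes), namely ANXA1, CCN2, COL17A1, FXYD3 and MYLK. ADIRF, CRYAB, KRT7 and GABRP had log2 differences of 0.75, 0.77, 0.57 and 0.85 in the gland, with edgeR adjusted p of 0.122, 0.00821, 0.00108 and 0.00265, and that of FDCSP was 0.07 (adjusted p = 0.844). None of these reached the 2-fold that a call needs. KRT7 was above luminal nuclei in 10 of 10 glands, with medians of 291 and 162 CPM, CRYAB in 9, GABRP in 8 and ADIRF in 7.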

How the data were processed

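Cells of 2 milk samples and nuclei of 10 glands were analysed. The deposited files hold whole-number UMI counts for each gene and called barcode, which the authors obtained from GEXSCOPE libraries with the CeleScope pipeline on the Sscrofa11.1 genome. Whether free RNA or doublets had been removed is not given in the sources. The milk libraries held 84971814 UMIs in 22257 barcodes (L0) and 46923887 UMIs in 18733 barcodes (L20), so rare genes are the less certain in L20. Groups came from the GEO labels, which give 1 milk sample per stage and 2 glands per stage. The 2 tissue sections were left out because they hold spots and not cells.

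Cells passed with 300 or more detected genes and a mitochondrial share of UMIs, over 13 genes, of up to 25%. The cells described, the gene lists and the tests were chosen with earlier results of these data known. Luminal cells needed 3 of 6 luminal markers (KRT19 carries no symbol in the milk files) and myeloid cells 4 of 7 markers. Counts were summed over cells and scaled to CPM. Genes with at least 30 UMIs were compared, 2-fold counted as called, and a group under 3 UMIs was set to that floor. Intervals on ratios are exact and conditional on the sum. Milk values have no test. Clusters used 2000 variable genes, 15 components, 20 neighbours and a Louvain resolution of 0.3 (igraph 0.11.9), in each library alone. Doublets were scored with Scrublet (scanpy 1.11.5), whose threshold marked 0 of 17571 and 0 of 14514 cells, so the caller had not worked and all cells were kept.

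Gland counts were summed per gland and class and tested with edgeR 4.0.16 (quasi-likelihood, TMM, gland as block, Benjamini-Hochberg) in R 4.3.3. The block is a pairing by animal, because both classes came from the same gland. DESeq2 1.42.0 was the alternative. The clustering, the comparisons by ratio, the permutation test and the edgeR fit were tested on simulated or constructed data. The doublet scoring was not. Genes named are the 7 of the rule, examples from the lists, and the 10 with the largest ratio in each direction, and in the glands the 10 with the largest log2 difference among those called. The genes named for the groups and those compared by mitochondrial share were chosen after their values were seen. Alternatives changed scaling, UMI minimum, floor, weighting of cells, number of rule genes, cell filters and left out each gland in turn. The alternatives by mitochondrial share, thinned members and removal of the 5% highest Scrublet scores were chosen after seeing the data. Some items are not reported here.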

Additional observations from a re-analysis of the deposited data

Results flagged for a closer look

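VIM, the intermediate filament of mesenchymal cells and leukocytes, was flagged because its contrast between KRT14/KRT15-positive and luminal cells ran in opposite directions in the 2 libraries. Its ratio was 0.275 in the library labelled L0, at 12.3 CPM in the chosen cells and 44.6 CPM in luminal cells. In the library labelled L20 the ratio was 6.05, at 126 and 20.8 CPM. The difference between the libraries was not tested, since each is 1 sample. Within L20 the VIM level was 1142 CPM in group 3 and 22.3 to 52.0 CPM in the other groups. At least 2 myeloid markers were detected in 76.8% of the cells of group 3, 9.27% of group 1 and 32.1% of group 2, at medians of 2510, 1826 and 3779 UMIs. In group 4, at a median of 22873 UMIs, the share was 84.4% and VIM was at 25.2 CPM. Myeloid cells had 519 and 2402 CPM, and the part of leukocyte RNA in the contrast was not tested.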

How the results depend on the processing

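The milk values rest on 1 library per stage, on 738 shallow cells in L20 and on labels that may be exchanged. Of 459 recomputed values, 74 of those for shares and counts stayed the same and 40 moved, and of those for 25 single genes (the rule genes and the first 10 in each direction between the libraries) 230 stayed and 113 moved. Ratios past 2-fold whose direction turned were SCGN, to 0.432 in cells with at most 0.5% mitochondrial UMIs, and TAGLN, to 0.982 in cells over 0.5%. S100A2, which was not past 2-fold, went to 0.681, and CCL8 went to 0.904 against a floor, both at most 0.5% mitochondrial. FOS, JUN and CXCL14, outside the 25, turned as well, to 1.57, 1.61 and 0.129. The causes were not tested. The alternative without called doublets was not run, because none was called.

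The share of kept cells was, for L0 and L20, 4.31% and 4.19% with at least 4 of 7 rule genes, 13.5% and 10.4% with 500 or more genes and up to 10% mitochondrial UMIs, 1.43% and 3.41% without cells with 2 or more myeloid markers, 0.956% and 3.82% for low-mitochondrial cells and 0.969% and 3.86% after thinning. With at least 2 of 7 it was 7.48% in L0.

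Genes higher in L20 and in L0 numbered 451 and 1493 with at least 100 UMIs and 369 and 1156 in low-mitochondrial cells. Weighting cells equally gave 1543 higher in L20. Higher in L0 were 1483 without cells with 2 or more myeloid markers and 775 after thinning. Genes higher than in luminal cells in both libraries numbered 35 with TMM, 34 with DESeq2 size factors, 27 with at least 100 UMIs and 38 over 0.5% mitochondrial. Higher and lower genes numbered 108 and 2 with at least 10 UMIs, 530 and 21 without cells with 2 or more myeloid markers, and 1755 and 185 in low-mitochondrial cells. Lower genes were 9 with equal weights and 2 with at least 4 of 7.

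In the glands, pairing by gland mattered, with 188 genes higher under the block and 26 without it, and 0 lower in both. With no filter on low counts 316 were higher and 3 lower, and with at least 4 of 7 rule genes 21 were lower. Leaving out each gland gave 139 to 217 higher and 0 to 2 lower.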
